A study of Mus musculus with 8 samples.

Results

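The nuclear genes of the respiratory chain were examined in mouse brain RNA, as the protein-coding genes whose symbols start with Nduf, Uqcr, Sdha, Sdhb, Sdhc, Sdhd, Atp5 or Cox4 to Cox8 and that had at least 10 counts in at least 2 libraries. Of 54532 genes in the deposited count table, 111 had such a symbol, 98 of these were protein-coding and 94 passed the count minimum. The 4 that did not were Cox7b2 (2 to 7 counts per library), Cox8b (0 to 5 counts), Cox8c (0 counts) and a second Atp5o entry (0 counts). The member nearest to the minimum was Cox7a1, a cytochrome c oxidase subunit of heart and skeletal muscle, with 20 and 10 counts in CAA stress, 11 and 16 in CAA mock, 11 and 12 in WT stress and 15 and 4 in WT mock. The rule used no difference between groups, and all 94 members also passed the filter on low counts that left 17182 genes for testing.

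Mice with cerebral amyloid angiopathy (CAA), in which amyloid is deposited in the walls of brain vessels, were compared with wild-type (WT) mice, each after chronic restraint stress or a mock procedure, to ask how stress bears on brain injury in CAA. The 4 groups were CAA stress, CAA mock, WT stress and WT mock, with 2 libraries each, and all mice were perfused with PBS before the brain was taken. The sources used here give neither the strain or transgene behind CAA nor the ages, the sex, the length of the stress or the part of the brain. No label says that the replicates are separate animals. Counts of the female transcript Xist show that the replicates differed in sex in CAA stress (3340 and 2) and WT mock (4575 and 24). In CAA mock and WT stress it is not known whether the replicates came from the same animal or from different animals. Marker levels differed within both pairs. Choroid plexus markers summed to 197 and 13.5 CPM in CAA mock and to 23.4 and 527 CPM in WT stress. The p-values therefore speak of the spread among these libraries.

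The libraries held 17275201 to 18894657 counts. Markers of brain cells were present, with all 10 listed genes tested for each of excitatory forebrain neurons, astrocytes and myelin. Levels of 12 striatal markers were low in a pair of libraries, with a median of -1.81 in CAA mock 2 and -2.05 in WT mock 1 on the log2 scale, relative to each gene's mean over the 8 libraries. The female transcript Xist had 3340 counts in CAA stress 1 and 4575 in WT mock 1, against 0 to 24 in the other 6 libraries, so sex was not balanced within those groups. Over all genes, 2 passed the threshold for CAA averaged over mock and stress, and 0 for stress averaged over WT and CAA.

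The respiratory chain carries electrons from NADH and succinate to oxygen through complexes I to IV of the inner mitochondrial membrane, and the proton gradient that builds up drives ATP synthesis by complex V. Most subunits are encoded in the nucleus, translated in the cytosol and imported, while a small core of complexes I, III, IV and V is encoded by mitochondrial DNA. In the brain, ion pumping and synaptic transmission draw heavily on this ATP. Transcription of the nuclear genes is known to be driven in large part by nuclear respiratory factor 1 (NRF1), by the ETS protein GABP (nuclear respiratory factor 2) and by YY1.

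The members were spread over 19 chromosomes, most of them on chromosomes 7 (9 members), 2 (8) and 1, 13 and 17 (7 each). They comprised 7 core and 29 accessory subunits and 8 assembly factors of complex I, 4 subunits and 4 assembly factors of complex II, 8 genes of complex III, 15 of complex IV, 16 of complex V and 3 others (Atp5s, Cox7a2l and Ndufa4l2). A RefSeq promoter window, from 250 bases before to 50 bases after the annotated start (assembly GRCm38.p6), was held for 78 of the 94. The palindromic NRF1 motif (GCGCA, any base, then GCGC) occurred in 20 of the 78 windows (25.6%), against 4.78% of the windows of 27025 genes, both strands being searched. These 27025 were not limited to protein-coding or expressed genes, and their GC content was not compared with that of the members' windows. The ETS motif CCGGAAG occurred in 20 windows (25.6%, against 9.12% of all), and the YY1 motif AAGATGGCG in 7 (8.97%, against 1.49%). A TATAAA box was found in 6 windows (7.69%, against 14.2% of all) and the CCAAT-box letters ATTGG in 34 (43.6%, against 37.9%). The ETS motif ends with the 3 letters that the YY1 motif starts with, and in 0 members a match of both shared bases; 0 members had any other pair of overlapping matches. A match describes the letters and not a bound site.

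The 4 windows printed here belong to members that the results return to: Uqcr11 had the largest fold difference between CAA and WT, Cox8a had the highest level of all members, Cox6a1 is the common form of a subunit with a muscle form, and Atp5k had the smallest unadjusted p for the interaction of CAA and stress. All are on the minus strand and are written 5′ to 3′ on that strand, with NRF1 and ETS matches on either strand in capitals. The Uqcr11 window is at chr10:80406772-80407071 and holds 1 ETS match.
Uqcr11: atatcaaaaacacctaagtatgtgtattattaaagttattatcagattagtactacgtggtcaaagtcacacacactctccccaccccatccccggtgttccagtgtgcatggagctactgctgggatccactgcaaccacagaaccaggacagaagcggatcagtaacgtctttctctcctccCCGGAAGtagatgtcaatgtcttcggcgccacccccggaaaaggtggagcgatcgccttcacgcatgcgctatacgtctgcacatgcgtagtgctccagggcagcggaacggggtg
The Cox8a window is at chr19:7217567-7217866 and holds 2 ETS matches and no NRF1 match.
Cox8a: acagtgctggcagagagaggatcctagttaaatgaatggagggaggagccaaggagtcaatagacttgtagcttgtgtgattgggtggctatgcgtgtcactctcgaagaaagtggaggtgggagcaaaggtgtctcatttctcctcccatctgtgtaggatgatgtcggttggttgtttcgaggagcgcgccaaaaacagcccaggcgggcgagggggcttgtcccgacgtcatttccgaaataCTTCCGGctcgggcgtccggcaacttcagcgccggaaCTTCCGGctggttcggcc
The Cox6a1 window is at chr5:115348909-115349208 and holds 2 NRF1 matches and 1 ETS match.
Cox6a1: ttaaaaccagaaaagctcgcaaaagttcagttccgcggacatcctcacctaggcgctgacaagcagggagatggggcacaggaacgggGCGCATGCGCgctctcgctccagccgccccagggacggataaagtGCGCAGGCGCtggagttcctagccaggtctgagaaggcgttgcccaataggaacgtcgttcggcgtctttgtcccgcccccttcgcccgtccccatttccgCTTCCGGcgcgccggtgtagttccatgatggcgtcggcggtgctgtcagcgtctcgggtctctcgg
The Atp5k window is at chr5:108434350-108434649 and holds 1 NRF1 and 1 ETS match.
Atp5k: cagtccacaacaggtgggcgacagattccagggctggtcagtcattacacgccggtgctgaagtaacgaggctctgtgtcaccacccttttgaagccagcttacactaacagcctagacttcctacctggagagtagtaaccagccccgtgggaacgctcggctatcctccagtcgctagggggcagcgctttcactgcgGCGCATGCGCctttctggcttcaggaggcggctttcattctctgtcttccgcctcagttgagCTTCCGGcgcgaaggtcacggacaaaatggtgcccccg

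Levels are compared between genes on the deposited FPKM scale, which divides by gene-model length and library size, as means over the 8 libraries. They ran from 1.26 FPKM for Cox7a1 to 609 FPKM for Cox8a, with a median of 48.0 FPKM over the members. Assembly factors, which build the complexes but are not part of them, were the lowest set: none of the 12 in the table exceeded 20.6 FPKM (Sdhaf4). Cox8a, a small subunit of cytochrome c oxidase, ranged from 442 to 852 FPKM over the libraries.

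In complex I, the NADH dehydrogenase, the core subunit Ndufs1, which holds iron-sulphur clusters, had 16.4 FPKM. The accessory subunits ranged from 3.91 FPKM (Ndufab1, the mitochondrial acyl carrier protein) to 138 FPKM (Ndufc2). The FPKM of Ndufab1 divides by a gene model of 6883 bases against 754 for Ndufc2, so long models lower the value. Among the assembly factors, Ndufaf3 had 17.7 FPKM and Ndufaf2 4.86 FPKM.

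In complex II, succinate dehydrogenase, which also works in the citric acid cycle, Sdha, the flavoprotein subunit, had 99.997 FPKM and Sdhc, a membrane anchor, 31.8 FPKM. Its assembly factors had 20.6 FPKM (Sdhaf4) and 1.90 FPKM (Sdhaf1). Complex III, the cytochrome bc1 complex, was the most even: its 8 genes lay between 61.0 FPKM (Uqcrc1, a core protein) and 142 FPKM (Uqcr10). In complex V, ATP synthase, Atp5a1, the alpha subunit of the catalytic head, had 278 FPKM, and Atp5l, a subunit of the membrane part, 16.4 FPKM with a model of 6443 bases. Of the 3 others, Cox7a2l, a factor that joins complexes III and IV, had 161 FPKM and Ndufa4l2, a hypoxia-responsive relative of the subunit gene Ndufa4, 1.41 FPKM.

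**Figure D1:**
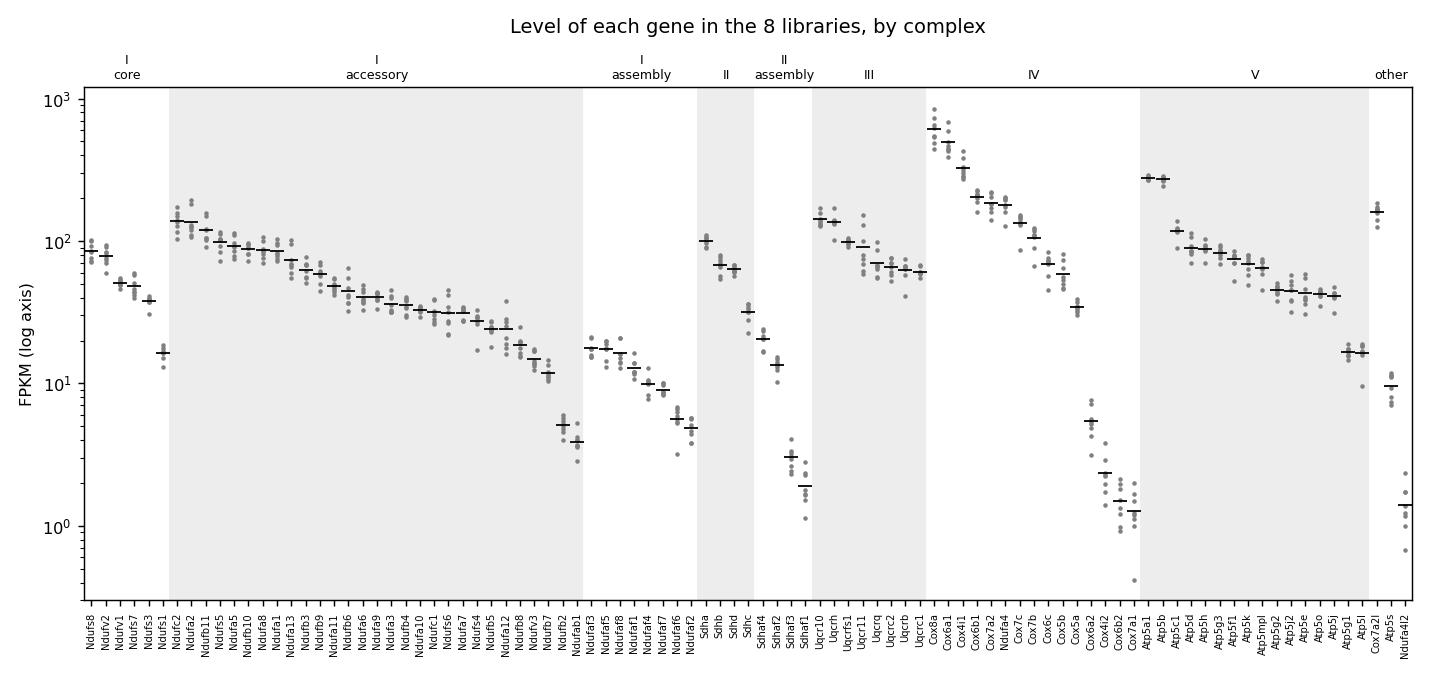
FPKM (log axis) of 93 of the 94 members, arranged by complex and role, with a grey point for each of the 8 libraries and a black bar for their mean. The means of assembly factors lie at or below 20.6 FPKM, while those of complex IV span from 1.26 FPKM for Cox7a1 to 609 FPKM for Cox8a.

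Genes of cytochrome c oxidase that have forms for other tissues kept one order in each of the 8 libraries. Cox4i1, the general form of subunit IV, had 86.5 to 213 times the FPKM of Cox4i2, the form known from lung and hypoxic cells. Cox6a1 had 61.4 to 137 times the FPKM of Cox6a2, the heart and muscle form, and Cox6b1 had 106 to 231 times that of Cox6b2, the testis form. Cox7a2, the liver form, had 108 to 490 times the FPKM of the muscle form Cox7a1. Ndufa4 had 72.8 to 254 times the FPKM of Ndufa4l2. These minor forms were few reads deep (Cox7a1 4 to 20, Ndufa4l2 14 to 46 and Cox6b2 19 to 44 counts per library), so the ratios are coarse. Of the 3 genes that encode the identical mature c subunit of ATP synthase, Atp5g3 had 4.13 to 5.46 times and Atp5g2 2.26 to 3.47 times the FPKM of Atp5g1.

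Within a gene, levels are compared between libraries in CPM, counts scaled to a common library size with TMM normalisation. The median member spanned 1.53-fold between its highest and lowest library. The steadiest was Atp5a1, whose highest library was 1.08 times its lowest, followed by Uqcrfs1, the Rieske iron-sulphur protein, at 1.14 times and Atp5b, the catalytic beta subunit, at 1.18 times. The SD over libraries of log2 CPM was largest, among members of at least 1 CPM, for Ndufa4l2 (0.55), Uqcr11 (0.50), Cox6b2 (0.45), Cox4i2 (0.44) and Ndufa12 (0.42). Among the 87 members of at least 10 CPM, the largest span was 2.57-fold.

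**Figure D2:**
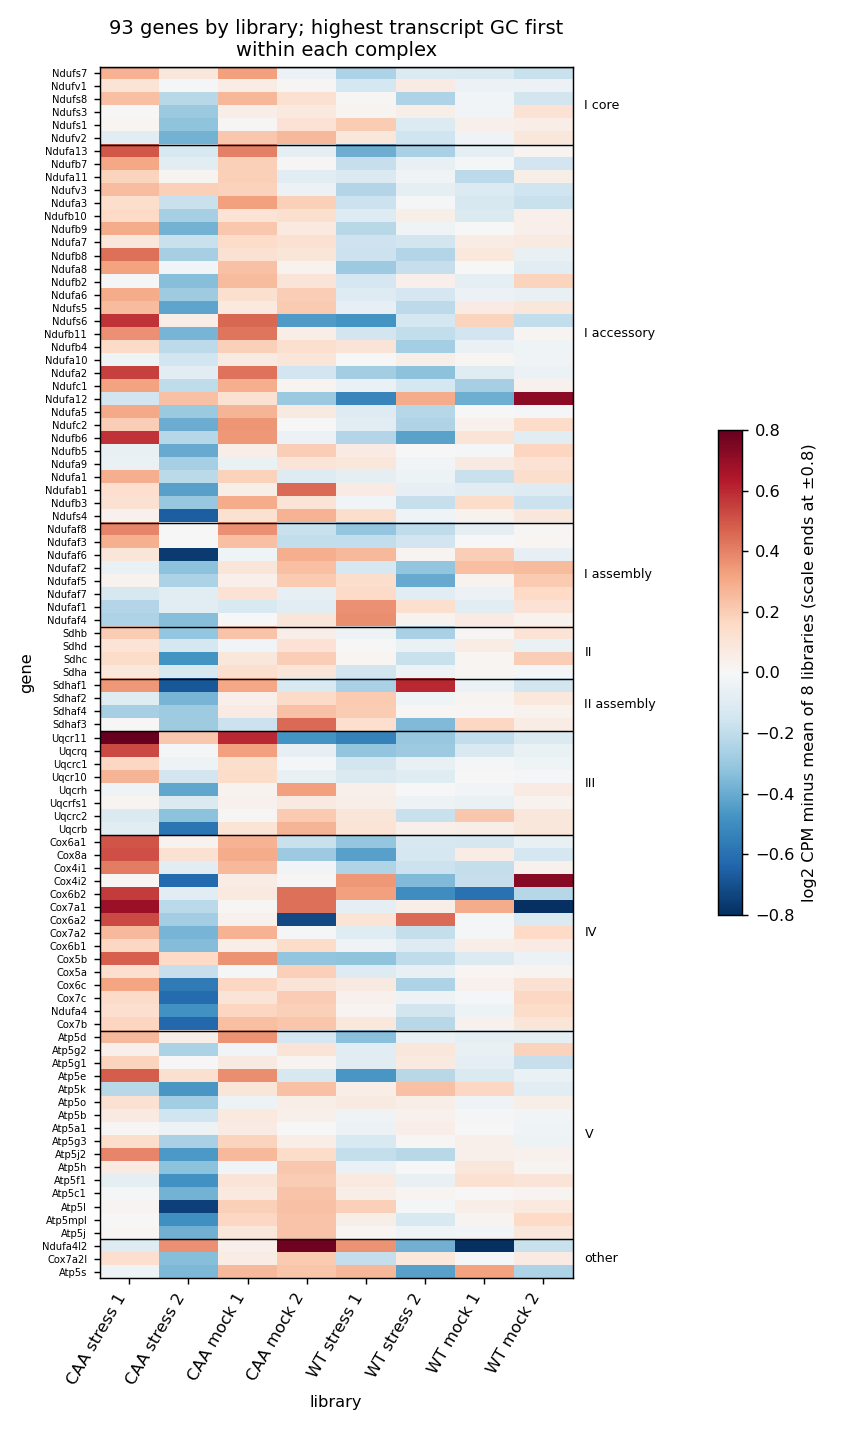
Level of 93 of the 94 members in each of the 8 libraries, as log2 CPM minus the gene's mean over libraries, with members grouped by role and sorted by transcript GC content within it. CAA stress 1 is mostly above the mean in the subunits of complexes I to V, but not in the assembly factors (4 of 8 for complex I and 1 of 4 for complex II) or the others (1 of 3), and CAA stress 2 is mostly below it in every role, and the members' medians in the other 6 libraries lie between theirs.

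The members' levels differed between libraries of the same group. The median over the 94 members, each relative to its mean over the 8 libraries on the log2 scale, was 0.14 and -0.27 in CAA stress, 0.13 and 0.098 in CAA mock, -0.053 and -0.094 in WT stress and -0.0069 and 0.027 in WT mock. Both CAA stress libraries thus stood at opposite ends of all 8. CAA stress 1 was the highest library for 35 members (37.2%, against 12.1% of all genes tested) and CAA stress 2 the lowest for 56 (59.6%, against 18.2%). Between these replicates 90 of 94 members were higher in replicate 1, with a median difference of 0.40 on the log2 scale. In the other groups 52 (CAA mock), 52 (WT stress) and 36 (WT mock) of the 94 were higher in replicate 1. The SD between replicates of the median gene on the log2 scale was, over the members, 0.28 in CAA stress, 0.11 in CAA mock, 0.11 in WT stress and 0.060 in WT mock, against 0.20, 0.20, 0.18 and 0.16 over all genes tested.

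Other gene groups differed between the same pair of libraries. In CAA stress 1 and 2, the median level was 0.22 and -0.21 for the 28 cytosolic ribosomal protein genes and -0.084 and -0.53 for the 13 protein genes of mitochondrial DNA. The 10 myelin markers summed to 14654 and 6293 CPM in CAA stress, 9856 and 16046 CPM in CAA mock, 6283 and 9080 CPM in WT stress and 9966 and 7764 CPM in WT mock, and all 10 lay above their own mean over libraries in CAA stress 1 and none in CAA stress 2. The 9 choroid plexus markers summed to 432 and 23.3 CPM in CAA stress, 197 and 13.5 CPM in CAA mock, 23.4 and 527 CPM in WT stress and 52.99 and 25.4 CPM in WT mock. The 10 markers of excitatory forebrain neurons had a median level of -0.059 and 0.44 in CAA stress 1 and 2. For the 7 olfactory bulb markers it was -0.76 and 0.91 in CAA stress and -1.12 and -1.37 in CAA mock. In WT it was 1.48 and 1.31 under stress and -2.39 and 1.295 under mock. In RNA from whole tissue, fewer cells of a type and less RNA per cell cannot be told apart, and the part of these lists in the members' levels was not tested.

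**Figure D3:**
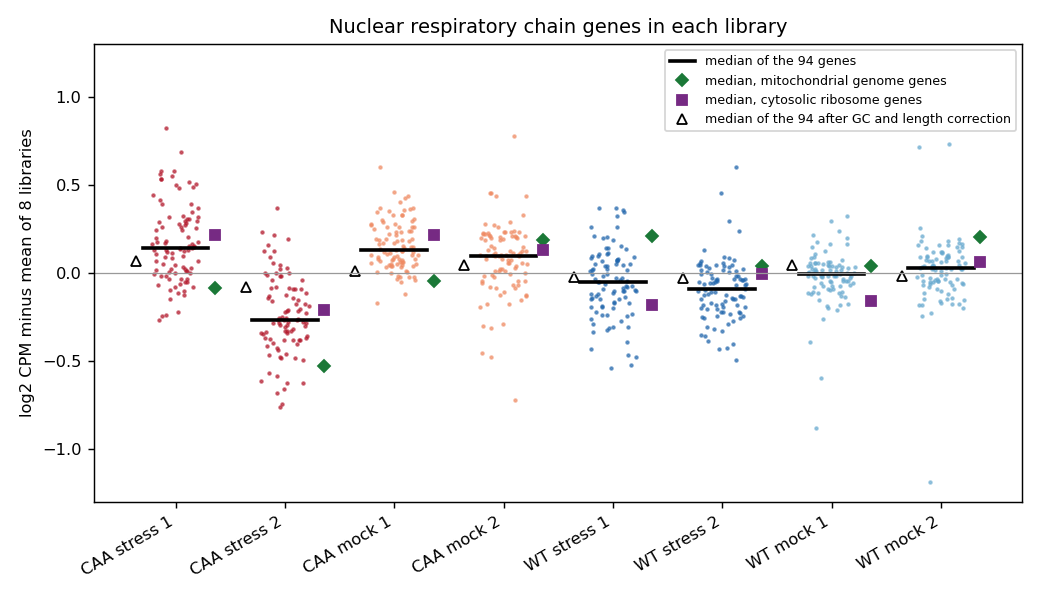
Distribution over the 94 members of the log2 level in each library relative to the gene's mean, with the medians of the members, of the 13 mitochondrial DNA genes and of the 28 ribosomal protein genes, and the members' median after correction for GC content and length. The members' medians run from -0.27 in CAA stress 2 to 0.14 in CAA stress 1, and after correction from -0.080 to 0.068.

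The members' fold changes were related to the GC content of their transcripts, to an extent that differed between comparisons. Members are short, with a median coding length of 430.5 bases against 1419 over all genes with a value. Their transcript GC content ran from 39.0% to 63.2% with a median of 51.3%, against 50.9% over all genes with a value. In CAA averaged over mock and stress, Spearman's correlation of log2 fold change with GC content was 0.60 across the 94 members, against 0.47 across all genes with a value, as a description across genes that are not independent. It was 0.57 for stress averaged over WT and CAA (0.27 across all genes), 0.64 for CAA under stress (0.61), 0.32 for CAA under mock (0.087) and -0.10 for stress in WT (-0.14). The 32 members of highest GC content (54.3% to 63.2%) had a median log2 fold change of 0.23, with 29 higher in CAA, and the 31 of lowest GC content (39.0% to 48.7%) one of -0.020, with 13 higher. Over all genes within the same bounds, the medians were 0.13 and -0.11. Under stress the corresponding medians were 0.28 (28 higher) and -0.16 (7 higher), against 0.24 and -0.18 over all genes. A correction of each library for transcript GC content and transcript length was therefore run beside the tests, and each comparison is given with and without it.

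For CAA averaged over mock and stress, 0 of the 94 members passed the edgeR quasi-likelihood test at an adjusted p of 0.05, against 0.0116% of all genes tested. At an unadjusted p under 0.05, edgeR gave 11 members, all higher in CAA, against 8.38% of all genes tested. DESeq2 called 0 members at an adjusted p under 0.05, and 12 had an unadjusted p under 0.05 there. Here and below, the DESeq2 counts at an unadjusted p are given without a share over all genes. The edgeR share is from another test and is not their background. Of the 94, 62 were higher in CAA, against 50.2% of all genes tested, and the median log2 fold change was 0.065, against 0.0011 over all genes. The count depended on both CAA stress libraries: without CAA stress 1, 38 members were higher and the median was -0.035, and without CAA stress 2, 79 were higher and the median was 0.16. After correction for GC content and length 49 were higher, and the median was 0.0058. In the same comparison 10 of 10 (median 0.43) of the myelin, 8 of 10 (median 0.22) of the astrocyte and 0 of 8 (median -0.20) of the endothelial markers were higher in CAA. By region, 1 of 7 olfactory bulb (median -1.40), 2 of 12 striatal (-0.31) and 11 of 12 hypothalamic markers (0.59) were higher. So were 7 of 9 thalamic (0.53), 7 of 9 choroid plexus (0.25), 3 of 5 cerebellar (0.11) and 2 of 2 brainstem markers (2.42). For excitatory forebrain neurons it was 2 of 10 (-0.082). The part of these lists in the members' values was not tested.

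By role, the median log2 fold change was 0.025 for the core subunits of complex I (5 of 7 higher in CAA), 0.13 for its accessory subunits (23 of 29) and -0.055 for its assembly factors (3 of 8). It was 0.062 for complex II (3 of 4), -0.093 for the assembly factors of complex II (1 of 4), 0.064 for complex III (5 of 8), 0.067 for complex IV (12 of 15), -0.022 for complex V (7 of 16) and 0.036 for the 3 others (3 of 3). The accessory subunits of complex I thus had the highest median and the assembly factors of complex II the lowest.

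Among the members with the smallest p, Uqcr11, the smallest subunit of complex III (ENSMUSG00000020163, chr10:80402997-80406830, minus strand), had 98.4 and 64.6 CPM in CAA stress, 84.5 and 39.99 CPM in CAA mock, 38.3 and 45.03 CPM in WT stress and 48.5 and 51.3 CPM in WT mock. Its levels were high in both CAA stress libraries and in CAA mock 1, while CAA mock 2 lay among the WT libraries. Its log2 fold change was 0.64 ± 0.24 (SE; edgeR adjusted p = 0.578), and 0.35 after correction. Atp5e, the epsilon subunit of the ATP synthase head (ENSMUSG00000016252, chr2:174461072-174464105, minus strand), had 105 and 81.8 CPM in CAA stress, 96.8 and 68.6 CPM in CAA mock, 54.2 and 64.1 CPM in WT stress and 69.2 and 72.2 CPM in WT mock. The order of its libraries was like that of Uqcr11, with CAA mock 2 below WT mock 1 and 2, and its log2 fold change was 0.44 ± 0.14 (SE; edgeR adjusted p = 0.531), or 0.26 after correction.

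Uqcrq, the ubiquinone-binding subunit of complex III, had 183 and 126 CPM in CAA stress, 159 and 121 CPM in CAA mock, 102 and 104 CPM in WT stress and 117 and 122 CPM in WT mock, a log2 fold change of 0.41 ± 0.14 (SE; edgeR adjusted p = 0.545) and 0.15 after correction. Ndufs7, a core subunit of complex I that holds the last iron-sulphur cluster before the quinone, had 100.1 and 87.8 CPM in CAA stress, 104 and 79.8 CPM in CAA mock, 69.5 and 76.6 CPM in WT stress and 76.2 and 72.8 CPM in WT mock. The lowest CAA library exceeded the highest WT library for Ndufs7, and its log2 fold change was 0.33 ± 0.12 (SE; edgeR adjusted p = 0.558), or 0.071 after correction. Ndufv3, an accessory subunit of the NADH-binding arm, was the other such gene: it had 43.9 and 42.3 CPM in CAA stress, 42.2 and 35.9 CPM in CAA mock, 31.5 and 35.3 CPM in WT stress and 34.3 and 33.1 CPM in WT mock, a log2 fold change of 0.29 ± 0.11 (SE; edgeR adjusted p = 0.586) and 0.19 after correction. These 2 were the members whose 4 CAA libraries were all higher, against 2% of all genes tested, and 0 members had all 4 lower, against 2.76%.

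**Figure D4:**
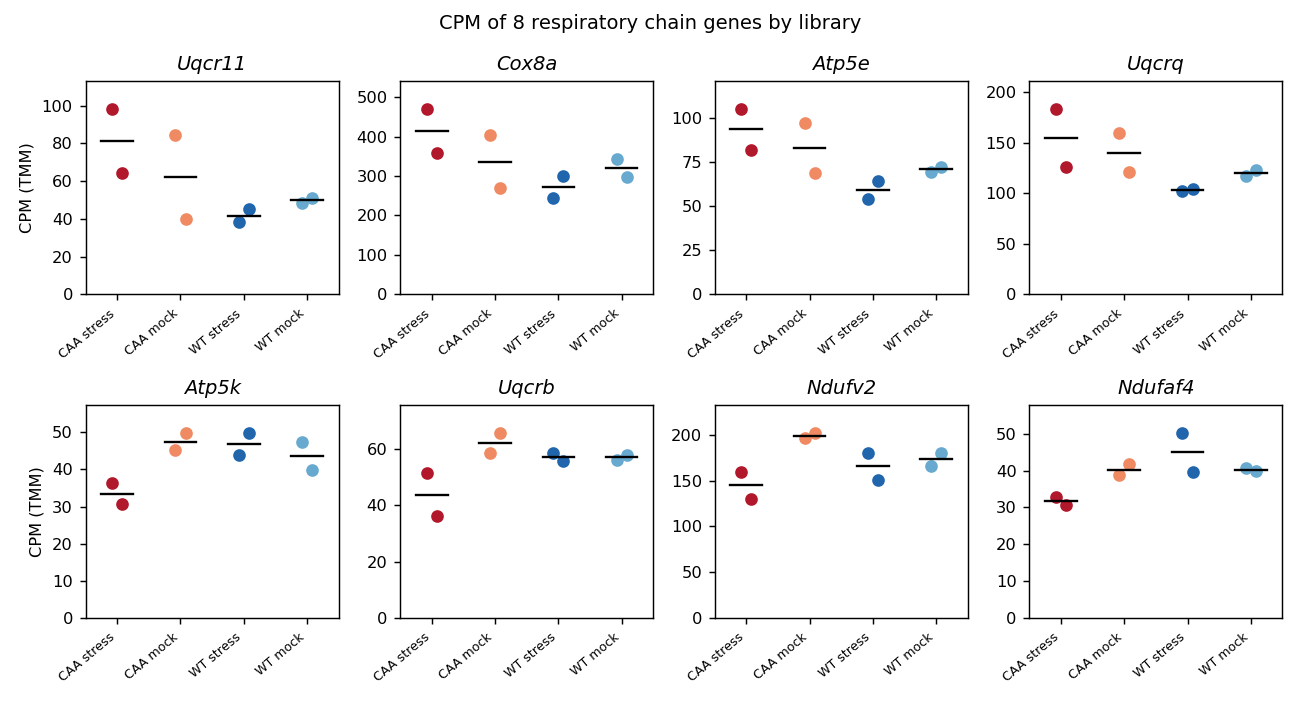
TMM-normalised CPM of 8 members in each library, with groups from CAA stress to WT mock along the horizontal axis, each point 1 library and each line a group mean. Uqcr11 is highest in CAA stress 1 at 98.4 CPM and lowest in WT stress 1 at 38.3 CPM, while Uqcrb is lowest in CAA stress 2 at 36.2 CPM.

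Under mock, which compares CAA mock with WT mock, 0 members passed the edgeR test, against 0.0116% of all genes tested, with 1 member at an unadjusted p under 0.05 (4% of all genes). DESeq2 called 0 at an adjusted p under 0.05, with 1 at an unadjusted p under 0.05. Of the 94, 85 were higher in CAA mock, against 50.7% of all genes tested, and the median log2 fold change was 0.12, against 0.005 over all genes. This was the most one-sided of the 7 comparisons, and the direction held in each complex: 7 of 7 core and 27 of 29 accessory genes of complex I, 4 of 4 of complex II, 7 of 8 of complex III, 13 of 15 of complex IV and 15 of 16 of complex V were higher. For 37 members both CAA mock libraries lay above both WT mock libraries, against 16.2% of all genes tested, and 0 members had the reverse order, against 16.7%. Spearman's correlation of log2 fold change with coding length was -0.33 across the members and -0.23 across all genes with a value. Members with 156 to 333 coding bases had a median of 0.13, against 0.11 over all genes within these bounds. The medians were 0.14 against 0.10 for 336 to 516 bases, and 0.072 against 0.024 for 519 to 2181 bases. The count was 48 of 94 and the median 0.0036 after correction for GC content and transcript length, which is not the coding length of these bounds. With a term for sex 86 were higher, and the median was 0.22. That term is estimated only from the replicate pairs of CAA stress and WT mock, which differ in Xist. The members' median difference of replicate 1 from replicate 2 was 0.40 in CAA stress and -0.027 in WT mock. The term therefore carries the CAA stress difference into this comparison, which holds no CAA stress library. In the same comparison 28 of 28 (median 0.21) of the ribosomal protein genes, 10 of 10 (median 0.48) of the myelin, 8 of 10 (median 0.26) of the astrocyte and 0 of 10 (median -0.40) of the excitatory forebrain neuron markers were higher in CAA mock. The last of these lists summed to 5866 and 4536 CPM in CAA mock, against 7005 and 6178 CPM in WT mock. By region, 1 of 7 olfactory bulb (median -1.71), 0 of 12 striatal (-0.24) and 9 of 12 hypothalamic markers (0.23) were higher in CAA mock. So were 8 of 9 thalamic (0.73) and 8 of 9 choroid plexus markers (0.96). The part of these lists in the members' values was not tested.

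Ndufa3, an accessory subunit of complex I, had 46.6 and 42.4 CPM in CAA mock, against 33.9 and 32.7 CPM in WT mock, a log2 fold change of 0.42 ± 0.17 (SE; edgeR adjusted p = 0.998), or 0.21 after correction. Ndufs8, a core subunit that holds iron-sulphur clusters, had 98.7 and 89.5 CPM in CAA mock, against 81.1 and 74.3 CPM in WT mock, a log2 fold change of 0.28 ± 0.18 (SE; edgeR adjusted p = 0.998), or 0.14 after correction. For both genes the CAA mock libraries did not overlap the WT mock libraries, which is likely for genes chosen by p in these libraries. The same order held for 37 of the 94 members, against 16.2% of all genes tested. Ndufab1 had 27.7 and 36.8 CPM in CAA mock, against 25.1 and 24.9 CPM in WT mock, and its log2 fold change was 0.37 ± 0.22 (SE), or 0.30 after correction. Ndufa4l2 had 1.52 and 2.59 CPM in CAA mock, against 0.753 and 1.29 CPM in WT mock, and the largest log2 fold change, 1.01 ± 0.52 (SE) and 0.92 after correction, on 14 to 46 counts per library. The pericyte markers, from a cell type in which Ndufa4l2 is known to be high, summed to 145 and 219 CPM in CAA mock, against 193 and 169 CPM in WT mock, and their part was not tested.

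Under stress, which compares CAA stress with WT stress, 0 members passed the edgeR test, against 0.0116% of all genes tested. At an unadjusted p under 0.05 edgeR gave 14 members (11 higher and 3 lower in CAA stress), against 8.22% of all genes tested. DESeq2 called 0 at an adjusted p under 0.05, gave 4 members no adjusted p, and had 13 at an unadjusted p under 0.05. The signs were nearly even: 51 of 94 were higher in CAA stress, against 50.7% of all genes tested, with a median of 0.023, against 0.006 over all genes. For 19 members both CAA stress libraries were above both WT stress libraries, against 19.5% of all genes tested, and for 14 both were below, against 20.4%. Without CAA stress 1 the median was -0.17 and 24 were higher, while without CAA stress 2 it was 0.20 and 71 were higher. With a term for sex the median was -0.070 and 33 were higher. After correction 50 were higher, and the median was 0.016. Of the myelin markers 10 of 10 (median 0.33), and of the endothelial markers 0 of 8 (median -0.28), were higher in CAA stress. By region, 0 of 7 olfactory bulb (median -1.09), 2 of 12 striatal (-0.36) and 11 of 12 hypothalamic markers (0.68) were higher. So were 7 of 9 thalamic (0.33) and 1 of 9 choroid plexus markers (-0.26). The part of these lists was not tested.

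The members with the smallest p under stress were of both signs. Atp5e had a log2 fold change of 0.66 ± 0.20 (SE; edgeR adjusted p = 0.579), or 0.48 after correction, and Uqcrq one of 0.59 ± 0.20 (SE; edgeR adjusted p = 0.579), or 0.27 after correction. Cox5b, a zinc-binding subunit of cytochrome c oxidase, had 129 and 104 CPM in CAA stress, against 74.1 and 80.4 CPM in WT stress, a log2 fold change of 0.59 ± 0.21 (SE), and 0.67 after correction. Uqcr11 had a log2 fold change of 0.97 ± 0.34 (SE), or 0.62 after correction. Cox8a, whose promoter is printed above, had one of 0.61 ± 0.22 (SE), or 0.31 after correction, with 470.3 and 357 CPM in CAA stress, against 243 and 299 CPM in WT stress. On the lower side, Atp5k, the e subunit of the ATP synthase membrane part (ENSMUSG00000050856, chr5:108433244-108434448, minus strand), had 36.3 and 30.6 CPM in CAA stress, against 43.9 and 49.9 CPM in WT stress, with a log2 fold change of -0.49 ± 0.17 (SE) that was -0.64 after correction. Ndufaf4, an assembly factor of complex I, had 32.8 and 30.8 CPM in CAA stress, against 50.3 and 39.6 CPM in WT stress, and its log2 fold change of -0.50 ± 0.17 was -0.13 after correction. For each of these 7 genes the CAA stress libraries did not overlap the WT stress libraries. The genes were named by small p in the same libraries or after their values were seen, which makes this likely. Over all members, 19 lay above and 14 below without overlap, against 19.5% and 20.4% of all genes tested.

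**Figure D5:**
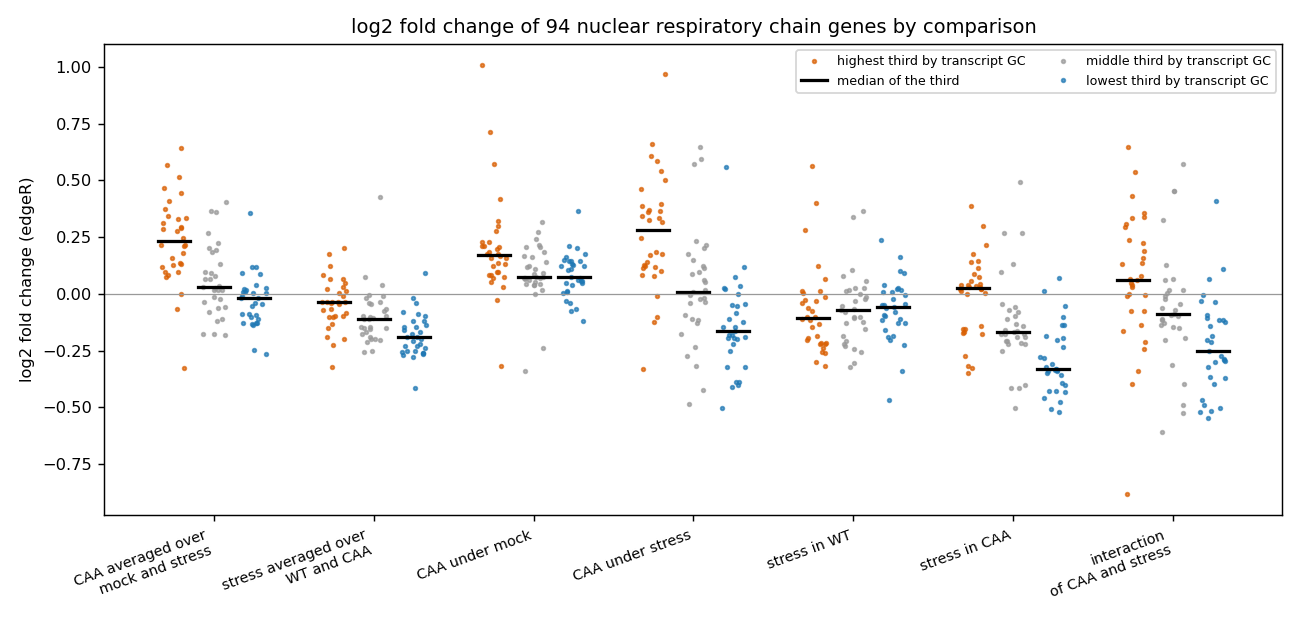
Log2 fold change of the 94 members in each of the 7 comparisons, with members split into 3 groups by transcript GC content and the median of each marked. In CAA under stress the medians are 0.28, 0.0074 and -0.16 from the highest to the lowest GC content.

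For stress averaged over WT and CAA, 0 members passed the edgeR test, against 0% of all genes tested, with 5 members at an unadjusted p under 0.05, all lower under stress (3.82% of all genes). DESeq2 called 0 at an adjusted p under 0.05, with 4 at an unadjusted p under 0.05. Of the 94, 15 were higher under stress, against 50.6% of all genes tested, and the median log2 fold change was -0.11, against 0.003 over all genes. Lower values held for most roles: 27 of 29 accessory genes of complex I, 4 of 4 subunits of complex II, 7 of 8 of complex III and 15 of 16 of complex V were lower, while complex IV had 9 of 15. Without CAA stress 2, 39 members were higher and the median was -0.018, and without CAA stress 1, 6 were higher and the median was -0.21. Without CAA mock 1, 29 were higher, and without CAA mock 2, 9 were. After correction the median was -0.038 and 29 were higher. In the same comparison 0 of 10 (median -0.35) of the astrocyte, 0 of 10 (median -0.29) of the myelin and 0 of 10 (median -0.15) of the microglial markers were higher under stress. Markers of brain regions were higher for 12 of 12 striatal (median 0.63), 7 of 7 olfactory bulb (1.25) and 12 of 12 hypothalamic genes (0.62). The counts were 8 of 9 for choroid plexus (median 1.43), 4 of 9 for thalamus (-0.013), 3 of 5 for cerebellum (0.079) and 0 of 2 for brainstem (-1.23). The astrocyte markers summed to 7031 and 5765 CPM in CAA stress, 7298 and 8296 CPM in CAA mock, 7291 and 5778 CPM in WT stress and 7439 and 7492 CPM in WT mock. The microglial markers summed to 480.5 and 379 CPM in CAA stress, 545 and 422 CPM in CAA mock, 459 and 321 CPM in WT stress and 417 and 479 CPM in WT mock. The part of these lists in the members' values was not tested.

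Ndufaf2, an assembly factor of complex I (ENSMUSG00000068184, chr13:108002715-108158623, minus strand), had 13.9 and 11.5 CPM in CAA stress, 15.5 and 17.1 CPM in CAA mock, 13.2 and 11.6 CPM in WT stress and 17.1 and 17.2 CPM in WT mock. All 4 stress libraries lay below all 4 mock libraries, and the log2 fold change was -0.41 ± 0.14 (SE; edgeR adjusted p = 0.920), or -0.28 after correction. Its gene overlaps Smim15 on the opposite strand over 4727 bases. The sources used here do not state the strand setting of the counting, so reads within this overlap may not be told apart. Whether exons of both genes overlap was not tested. Atp5f1, the b subunit of the ATP synthase stalk, was the other member with all 4 stress libraries lower: it had 290.3 and 218 CPM in CAA stress, 327 and 351 CPM in CAA mock, 322 and 293 CPM in WT stress and 332 and 328 CPM in WT mock, and a log2 fold change of -0.26 ± 0.12 (SE; edgeR adjusted p = 0.920), or -0.20 after correction. Ndufv2, a core subunit of complex I, had a log2 fold change of -0.26 ± 0.11, Uqcrc2, a core protein of complex III, one of -0.26 ± 0.12 and Atp5mpl, a small ATP synthase subunit, one of -0.28 ± 0.13 (SE). After correction these were -0.10 for Ndufv2, -0.14 for Uqcrc2 and -0.049 for Atp5mpl. The 2 members with all 4 stress libraries lower compare with 0.867% of all genes tested, and 0 members had all 4 stress libraries higher, against 0.96%.

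In WT, 0 members passed the edgeR test for stress, against 0% of all genes tested, with 1 at an unadjusted p under 0.05 (1.59% of all genes). DESeq2 called 0 at an adjusted p under 0.05 and had 0 at an unadjusted p under 0.05. The count of members higher under stress was 27, against 49.6% of all genes tested, and the median was -0.078, against -0.002. Both WT stress libraries were below both WT mock libraries for 29 members, against 13.5% of all genes tested, and above them for 4, against 13.2%. With a term for sex 49 were higher, and the median was 0.0027. Here too the term carries the CAA stress difference into WT mock. After correction 33 were higher, and the median was -0.050. Of the myelin markers 0 of 10 (median -0.32), of the astrocyte markers 1 of 10 (median -0.28) and of the excitatory forebrain neuron markers 2 of 10 (median -0.34) were higher in WT stress, and their part was not tested. Ndufb6, an accessory subunit of complex I, had 24.5 and 21.4 CPM in WT stress, against 31.04 and 27.1 CPM in WT mock, with a log2 fold change of -0.34 ± 0.25 (SE; edgeR adjusted p = 0.9999), or -0.33 after correction. Ndufaf2 had one of -0.47 ± 0.20 (SE), and -0.46 after correction. The accessory subunits Ndufa7 and Ndufa13 had -0.22 ± 0.15 and -0.30 ± 0.22, and Atp5e had -0.26 ± 0.20 (SE). After correction Ndufa7 had -0.16, Ndufa13 -0.23 and Atp5e -0.19. The gene of Ndufa13 overlaps Yjefn3 on the same strand over 8379 bases.

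In CAA, 0 members passed the edgeR test for stress, against 0% of all genes tested. At an unadjusted p under 0.05 edgeR gave 9 members, all lower in CAA stress, against 6.94% of all genes. DESeq2 called 0 at an adjusted p under 0.05, with 8 at an unadjusted p under 0.05. The count of members higher in CAA stress was 29, against 51.4% of all genes tested, with a median of -0.17, against 0.012. Both CAA stress libraries lay below both CAA mock libraries for 31 members, against 19% of all genes tested, and above them for 1, against 18.3%. Without CAA stress 2 the count was 51 and the median 0.014, and without CAA stress 1 it was 7 and -0.37. Without CAA mock 2, 11 were higher. With a term for sex 14 were higher, and the median was -0.27. After correction 35 were higher, and the median was -0.041. Of the myelin markers 0 of 10 (median -0.34), of the astrocyte markers 1 of 10 (median -0.35) and of the excitatory forebrain neuron markers 8 of 10 (median 0.51) were higher in CAA stress, and their part was not tested.

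Uqcrb, a ubiquinone-binding subunit of complex III, had 51.4 and 36.2 CPM in CAA stress, against 58.8 and 65.8 CPM in CAA mock, and a log2 fold change of -0.51 ± 0.18 (SE; edgeR adjusted p = 0.696), which was -0.080 after correction. Ndufv2, a core subunit of the NADH-binding arm of complex I, had 159.8 and 129.9 CPM in CAA stress, against 196 and 202 CPM in CAA mock, and its log2 fold change was -0.46 ± 0.16, or -0.11 after correction. Atp5k had 36.3 and 30.6 CPM in CAA stress, against 45.2 and 49.7 CPM in CAA mock, with a log2 fold change of -0.51 ± 0.17 (SE), or -0.40 after correction. The log2 fold change was -0.41 ± 0.17 for Atp5f1 and -0.52 ± 0.22 for Atp5l (SE), or -0.28 for Atp5f1 and -0.29 for Atp5l after correction. For Uqcrb, Ndufv2 and Atp5k both CAA stress libraries lay below both CAA mock libraries, and CAA stress 2 was the lower one. This order is likely for genes chosen by p in these libraries, and 31 members had it, against 19% of all genes tested.

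For the interaction, in which a positive value means a larger CAA effect under stress than under mock, 0 members passed the edgeR test, against 0% of all genes tested, with 1 at an unadjusted p under 0.05 (3.46% of all genes). DESeq2 called 0 at an adjusted p under 0.05, with 1 at an unadjusted p under 0.05. Of the 94, 33 were above 0, against 50.4% of all genes tested, with a median of -0.092, against 0.004. Without CAA stress 1 the count was 14, and without CAA stress 2 it was 63. After correction the count was 47, and the median 0.00048. For 4 members the CAA libraries lay above the WT libraries under mock and below them under stress with no overlap, against 2.09% of all genes tested, and for 0 the reverse held, against 1.8%. Atp5k had -0.61 ± 0.24 (SE; edgeR adjusted p = 0.995), and -0.57 after correction. Next by p were Ndufaf4 with -0.50 ± 0.24, Sdhaf4 with -0.52 ± 0.26, Uqcrb with -0.52 ± 0.25 and Atp5l with -0.55 ± 0.31 (SE). Of these, Ndufaf4 was -0.15, Sdhaf4 -0.20, Uqcrb -0.10 and Atp5l -0.33 after correction.

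The other mitochondrial lists, chosen as pathway partners of the members, had 0 genes past the edgeR threshold in any comparison. In CAA averaged over mock and stress, 1 of 13 protein genes of mitochondrial DNA were higher, with a median log2 fold change of -0.22. The nuclear members' median of 0.065 in this comparison was -0.035 without CAA stress 1 and 0.0058 after correction. The TCA cycle genes had 8 of 16 higher (median 0.0028), the electron carriers and their synthesis 7 of 14 higher, the 34 assembly factors outside the name rule 17 higher (median -0.011), and the regulators of mitochondrial biogenesis 4 of 14 higher. Of the mitochondrial carriers and porins 8 of 14, and of the genes of mitochondrial fission and fusion 3 of 11, were higher. The cytosolic ribosomal proteins had 23 of 28 higher (median 0.18). For stress averaged over WT and CAA, 4 of 13 genes of mitochondrial DNA (median -0.17), 1 of 16 TCA cycle genes (median -0.12) and 3 of 28 ribosomal protein genes (median -0.11) were higher.

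Among members on chromosome 1, the log2 fold changes in CAA averaged over mock and stress were 0.37 ± 0.15 for Cox5b and 0.12 ± 0.13 for Ndufb3. They were -0.0084 ± 0.14 for Sdhc, -0.013 ± 0.099 for Ndufa10, -0.092 ± 0.12 for Ndufs1 and -0.13 ± 0.13 for Sdhaf4 (SE). Cox5b was 0.35 after correction. The values were of both signs, and edgeR called none.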

How the data were processed

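Mouse brain RNA was sequenced in 8 libraries. The authors deposited raw counts per gene. The submitters' processing notes list HISAT2 2.0.5, featureCounts 1.5.0-p3 and mm10, and name neither a strand setting nor an annotation release. A deposited table gives FPKM, made by the authors from those counts; its library denominators equalled DESeq2's size-factor library sizes. The same table holds the gene length in bases. The members and lists were chosen with earlier results of these data known. The named genes are, per comparison, the 5 members of smallest unadjusted p, the highest and lowest FPKM per role, isoform sets, the 5 most variable and the members on chromosome 1; others were named after their values were seen.

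Counts were tested in R 4.3.3 with edgeR 4.0.16: filterByExpr (minimum count 10, minimum total 15), TMM, and a robust quasi-likelihood fit of 4 group means over all 8 libraries (residual degrees of freedom 4, prior 7.29, biological coefficient of variation 0.206), with two-sided p-values adjusted by Benjamini-Hochberg over 17182 genes, threshold 0.05, for 7 comparisons. Centred levels used log2 of CPM plus 0.1. The fit was also run on simulated data with planted changes larger than the members' medians and no shift of a whole library. That run therefore does not measure how well shifts as small as the members' would be detected. DESeq2 1.42.0 and limma 3.58.1 served as alternatives. Transcript GC content, transcript length and coding length came from GENCODE vM21 (14682 genes with a value, all 94 members among them). The correction for GC content and length used transcript length and not coding length. The alternatives were DESeq2 size factors, no filter, DESeq2, a replicate block, only the compared libraries, limma on log2 FPKM, each library left out, the 6 libraries of low Xist counts only (called male libraries), a sex term, the libraries low in striatal markers left out, structural subunits only, members of at least 10 CPM, and a GC and length correction, added after seeing the data. No pair of replicates was as close as repeat counting of 1 library would be (chi-square over degrees of freedom 18.6 to 35.4). No column of other samples was in the tables (0). No sequence of a protein was used here. The values of 1 member are not reported here.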

Additional observations from a re-analysis of the deposited data

Results flagged for a closer look

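For 4 members, the CAA libraries lay wholly above the WT libraries under mock and wholly below them under stress (4.26% of members, against 2.09% of all 17182 genes tested), and for 0 the reverse held (1.8% of all genes tested). Ndufa10, an accessory subunit of complex I, had an interaction of -0.20 on the log2 scale (-0.20 ± 0.20, SE), with 107 and 98.8 CPM in CAA stress, 116 and 118 CPM in CAA mock, 109.7 and 114 CPM in WT stress and 111 and 108 CPM in WT mock. Sdhaf4, an assembly factor of complex II, had an interaction of -0.52, with 14.99 and 14.8 CPM in CAA stress, 18.9 and 21.2 CPM in CAA mock, 20.8 and 18.2 CPM in WT stress and 18.2 and 18.4 CPM in WT mock. Uqcrb had one of -0.52, with 51.4 and 36.2 CPM in CAA stress, 58.8 and 65.8 CPM in CAA mock, 58.7 and 55.9 CPM in WT stress and 56.1 and 57.9 CPM in WT mock. Atp5c1, the gamma subunit that turns within the ATP synthase head, had one of -0.36, with 223 and 173 CPM in CAA stress, 238 and 264 CPM in CAA mock, 234 and 228 CPM in WT stress and 225 and 229 CPM in WT mock. The interaction term was tested with edgeR and gave an adjusted p of 0.995 for each of the 4, so none passed. CAA stress 2 was the lowest of the 8 libraries for all 4. With 2 libraries per group, a single library that stands apart from its group cannot be identified by a formal rule, and no cause was tested.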

How the results depend on the processing

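The count of members past the edgeR threshold was 0 in all 7 comparisons under every alternative run except with no filter on low counts, where it was 1 in CAA averaged over mock and stress and 1 in CAA under stress: Uqcr11, with log2 fold changes of 0.65 (adjusted p = 0.000592) and 0.97 (adjusted p = 0.000453). The members' median in CAA under stress was -0.17 with male libraries only (and from -0.17 to 0.20 on leaving out each library in turn), in stress in CAA -0.37 with male libraries only (-0.37 to 0.014 on leaving out each library), and in the interaction -0.28 with male libraries only and -0.28 with a sex term (-0.31 to 0.084 on leaving out each library). The low ends came without CAA stress replicate 1 and the high ends without CAA stress replicate 2. The cause was not tested. With male libraries only, CAA stress was represented by CAA stress 2 alone and WT mock by WT mock 2 alone. The male-only medians of -0.17 and -0.37 are thus the same as those without CAA stress 1. Sex and that library cannot be separated in CAA stress. The sex term is estimated from CAA stress and WT mock together. It therefore also moved the medians of CAA under mock and stress in WT, which hold no CAA stress library. Leaving out each library gave -0.035 to 0.16 for CAA averaged over mock and stress, -0.21 to -0.018 for stress averaged over WT and CAA, 0.083 to 0.14 for CAA under mock and -0.11 to -0.055 for stress in WT. Signs were checked for 35 log2 fold changes, those of the members of smallest unadjusted p in each comparison, and none reversed under the alternatives. These members were chosen by p in the same libraries, which makes a change of sign less likely. Other log2 fold changes given above, such as those of Cox8a under stress and of Sdhc, were not in this check.

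The fit with a replicate block gave medians of 0.062 for CAA averaged over mock and stress and -0.11 for stress averaged over WT and CAA, and 0 members called. The replicate numbers give no pairing by the labels, and deviations of libraries of the same number correlated at -0.27 to 0.15 over the pairs of groups. Of all genes tested, edgeR called 2, 0, 2, 2, 0, 0 and 0 in the comparisons CAA averaged, stress averaged, CAA under mock, CAA under stress, stress in WT, stress in CAA and interaction. DESeq2 called 46, 3, 20, 11, 0, 14 and 4, and edgeR with no filter called 223, 49, 82, 120, 11, 112 and 17. The precision is limited by 2 libraries per group.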

Other observations

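Of the 111 genes whose symbols matched, 13 were not protein-coding: 12 processed pseudogenes and the long noncoding RNA Ndufb1-ps. Ndufb1-ps had a mean of 519 counts per library and the pseudogene Ndufab1-ps one of 122. Reads of such copies can be shared with the parent gene, and the handling of reads that match several places is not given in the sources used here, so the levels of Ndufab1 carry that uncertainty. Of the 94 members, 41 overlap another gene, and 19 overlap one with a mean of at least 100 counts.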
